A study of Mus musculus with 4 samples.

Results

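The genes described here are Fcgr1, Fcgr2b, Fcgr3 and Fcgr4, which encode the mouse receptor chains for the Fc part of IgG, Fcer1g, which encodes the signalling subunit of the activating chains, Fcgrt, which encodes the neonatal Fc receptor, and Syk, which encodes the kinase downstream of the subunit. They were chosen by name, and all 7 were found among the 17574 genes of the series. The samples were tumours of SCC7 cells, a mouse squamous carcinoma line of wild-type genotype, implanted subcutaneously in C3H/HeN mice and taken on day 10. The 4 libraries are 2 controls and 2 of tumours treated on days 6 and 9 with anti-CD71, which binds the transferrin receptor. The labels give neither the class of that antibody nor what the control mice received. They do not say whether each library came from 1 tumour, so p-values measure only the spread between these samples, which may be technical.

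Fc receptors let leukocytes respond to cells and particles coated with antibody. The activating chains bind IgG outside the cell and have no signalling motif of their own. They pair with the FcR gamma subunit, whose tyrosine motif (an immunoreceptor tyrosine-based activation motif, ITAM) is phosphorylated by Src family kinases and then docks Syk. Fcgr2b is the inhibitory chain. It carries an inhibitory motif (ITIM) that recruits the lipid phosphatase SHIP-1, encoded by Inpp5d. The neonatal receptor works inside cells, where it binds IgG at acid pH and returns it to the surface. In tumours Fcgr1, Fcgr2b, Fcgr3 and Fcgr4 are expressed mainly by macrophages, monocytes, neutrophils and, for Fcgr3, natural killer cells.

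The opposed motifs can be read in the coding sequences, which are shown because they separate the subunit that activates from the chain that inhibits. They were taken from GENCODE M21 transcripts on GRCm38, and capitals mark the codons of the motif tyrosines. The first stretch spans codons 65 to 79 of the 86 in Fcer1g, and the second spans codons 270 to 275 of the 293 in the main Fcgr2b transcript.
Fcer1g ITAM: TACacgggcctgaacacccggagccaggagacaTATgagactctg
Fcgr2b ITIM: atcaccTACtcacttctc
The ITAM pattern was not found in the coding sequences of Fcgr1, Fcgr3 and Fcgr4.

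Values are TPM, transcripts scaled to a fixed total, which the authors deposited for each RefSeq transcript and which are comparable between genes because they are scaled by length. TPM keeps no read depth, so no counting error can be given. The control libraries and anti-CD71 replicate 2 list 59881 transcripts each. Anti-CD71 replicate 1 lists 13586 of them in the file at hand, and a transcript beyond its end was treated as missing, not as 0. It lists no transcript of Fcgr1, Fcgr4, Fcer1g or Fcgrt, transcripts with 0.129% of the TPM of Fcgr3 and 3.48% of that of Fcgr2b, and transcripts with 30.7% of the TPM of Syk. The comparison of whole genes therefore sets anti-CD71 replicate 2 alone, called the treated library below, against both controls. Anti-CD71 replicate 2 also stands apart by its skin genes: the summed TPM of 8 epidermis markers was 0.10 and 0.14 in the controls and 100.06 in this library. Krt5, a keratin of the basal squamous layer, was listed at 0 in both controls and at 31.40 TPM in anti-CD71 replicate 2, so this marker of the labelled squamous cell type was absent from the control tumours. Krtdap, a gene of differentiating epidermis, had over its listed transcripts 0 TPM in the first and 6.11 TPM in the second anti-CD71 library. The part of skin tissue in the differences below was not tested.

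All 7 genes were lower in anti-CD71 replicate 2 than in either control, and 4 of them fell: the inhibitory receptor gene Fcgr2b to 47.7% of its control mean, Fcgr4 to 55.3%, the shared subunit gene Fcer1g to 58% and Fcgr3 to 63.6%. Fcgrt stood at 72.3%, Fcgr1 at 78.6% and Syk at 81.2% of the control mean, and these 3 did not pass the test. Genes were tested with limma on log2(TPM + 1) over the 11982 genes with at least 1 TPM in 2 libraries, with calls made where the p adjusted by Benjamini-Hochberg was under 0.05. Limma called 2.39% of all tested genes lower and 0.476% higher, and 42.5% of tested genes lay below both controls. The members' count below both controls is read against that last share, which is high. The median log2 change was -0.65 over the 7 genes and -0.01 over all tested genes.

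**Figure D1:**
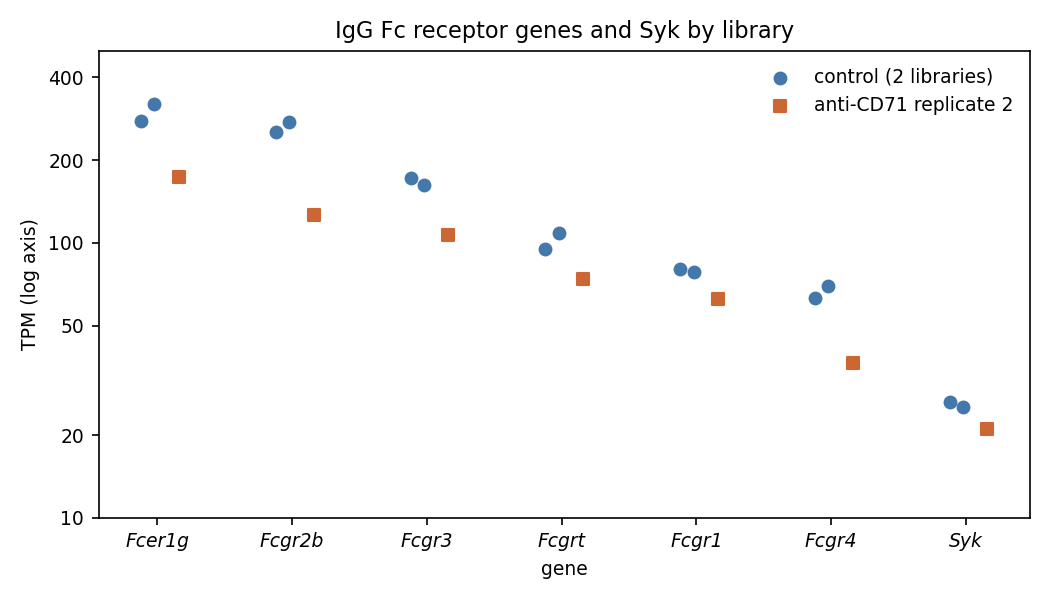
TPM of each gene (log axis) in the 2 control libraries (circles) and in anti-CD71 replicate 2 (square), with genes ordered by control level. The square lies below both circles for all 7 genes, and the order of the genes is the same in each library shown, from Fcer1g (277.11, 320.02 and 173.19 TPM) to Syk (26.29, 25.39 and 20.99 TPM).

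The calls rest on the spread of the controls and on the way limma borrows it across genes, since a single treated library adds no spread of its own. None of the 7 genes was called when the filter was 1 TPM in 1 library (adjusted p between 0.0893 and 0.202 by limma). The same held by limma with no filter (adjusted p between 0.156 and 0.292) and with no intensity trend in the variance prior (adjusted p between 0.09 and 0.207). Log2 changes stayed below 0 for each gene in all 9 alternatives, but these settings reuse the same treated library. It lay below both controls for each gene, so leaving out a control could not change the sign. The sign therefore adds no separate evidence.

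Among the activating chains, Fcgr1 encodes the high-affinity receptor, CD64. It lies on chromosome 3 from 96282909 to 96293969 in GRCm38.p6. Fcgr1 had 80.22 and 78.67 TPM in the controls and 62.43 TPM in anti-CD71 replicate 2. The treated library was lower than both, but the difference did not pass (log2 change -0.34, SE 0.08, adjusted p = 0.0894 by limma). Fcgr3 encodes the low-affinity receptor CD16, which binds immune complexes. It had 172.72 and 162.56 TPM in the controls and 106.64 TPM in anti-CD71 replicate 2. Fcgr3 was the most abundant activating chain in each complete library and fell by 0.65 on the log2 scale (SE 0.08, adjusted p = 0.0323 by limma). With median scaling its adjusted p was 0.0512. Fcgr4 encodes a receptor of intermediate affinity for some IgG subclasses. It had 63.01 and 69.52 TPM in the controls and 36.64 TPM in anti-CD71 replicate 2. Fcgr4 was the least abundant chain in every complete library and fell by 0.84 (SE 0.10, adjusted p = 0.031 by limma).

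Fcer1g had 277.11 and 320.02 TPM in the controls and 173.19 TPM in anti-CD71 replicate 2. It was the most abundant of the 7 genes in each complete library, above 97.3%, 97.6% and 95.4% of all genes. Its controls differed more than those of the other members (298.56 ± 30.34 TPM, SD, n = 2), and it fell by 0.78 on the log2 scale (SE 0.10, adjusted p = 0.0376 by limma). The ratio of Fcer1g TPM to the summed TPM of Fcgr1, Fcgr3 and Fcgr4 was 0.877 and 1.03 in the controls and 0.842 in the treated library. The subunit also serves other receptors, so this ratio counts transcripts and not complexes.

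The inhibitory chain Fcgr2b had 253.40 and 274.62 TPM in the controls and 125.89 TPM in anti-CD71 replicate 2. It fell by 1.06 (SE 0.08, 95% interval -1.27 to -0.85, adjusted p = 0.0146 by limma), and 1.18% of tested genes had a more negative change. Near-identical stretches join it to Fcgr3: of the distinct 31-base words in the Fcgr3 transcript used here, 17.7% also occur in the Fcgr2b transcripts, and no other pair of the 7 genes shares any. Reads from these stretches may have been split between Fcgr2b and Fcgr3 by the authors' program, so the separate values of the pair are less certain than their sum.

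**Figure D2:**
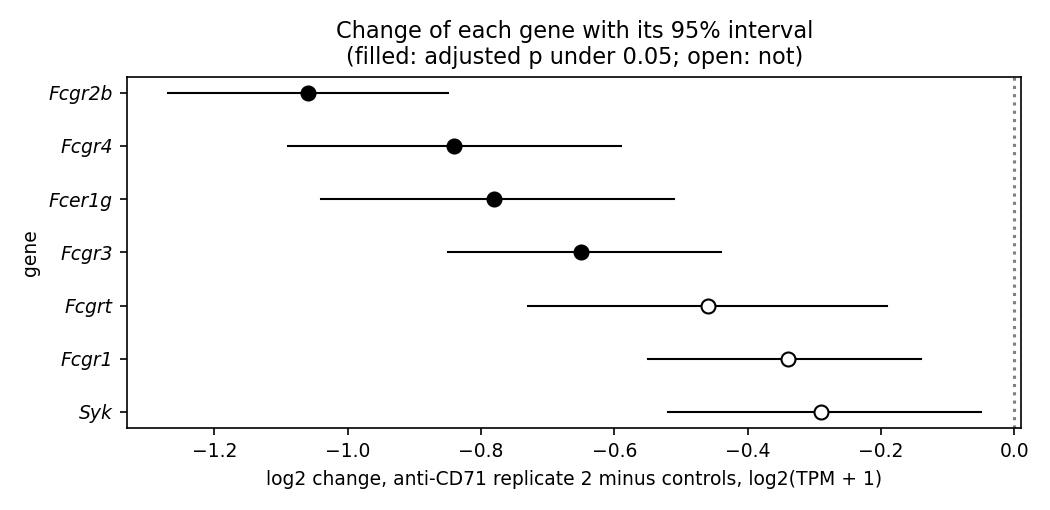
Log2 change of each gene in anti-CD71 replicate 2 against the controls (points) with its 95% interval from limma (lines), filled where the adjusted p is under 0.05. The changes run from -1.06 for Fcgr2b to -0.29 for Syk, and the interval of Fcgr2b (-1.27 to -0.85) does not reach that of Fcgr1 (-0.55 to -0.14).

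Fcgrt, whose product protects IgG from breakdown and which is also expressed outside the myeloid lineage, had 95.38 and 108.90 TPM in the controls and 73.85 TPM in anti-CD71 replicate 2. It lies on chromosome 7 from 45092993 to 45103822. The difference did not pass (log2 change -0.46, SE 0.11, adjusted p = 0.089 by limma). Most of its TPM was in NM_010189, with 83.3 and 98.66 TPM in the controls and 63.42 TPM in the treated library. The other transcript, NM_001357117, had 12.08, 10.24 and 10.43 TPM and did not separate the groups. Syk, on chromosome 13 from 52582610 to 52648792, had 26.29 and 25.39 TPM in the controls and 20.99 TPM in anti-CD71 replicate 2. It was the least abundant member and missed the threshold (log2 change -0.29, SE 0.09, adjusted p = 0.151 by limma). Fewer cells of a type and less RNA per cell cannot be told apart in these bulk samples, which holds for each value given here.

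The 4 receptor chains summed to 569.35 and 585.37 TPM in the controls and 331.60 TPM in anti-CD71 replicate 2. Fcgr2b made up 44.5% and 46.9% of that sum in the controls and 38% in the treated library. The share of Fcgr1 was 14.1% and 13.4% in the controls and 18.8% in the treated library, that of Fcgr3 was 30.3%, 27.8% and 32.2%, and that of Fcgr4 was 11.1%, 11.9% and 11%. The treated library thus had a smaller share of the inhibitory chain and a larger share of Fcgr1 and Fcgr3 than either control. These shares and the ratio that follows rest on 1 treated library. They also depend on how reads were split between Fcgr2b and Fcgr3, which is less certain than the sum of the pair. The ratio of the summed activating chains to Fcgr2b was 1.25 and 1.13 in the controls and 1.63 in the treated library, which is 1.37 times the control mean. With 1 library against 2, an exact permutation test cannot give a p below 0.333, so none was run on these ratios.

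**Figure D3:**
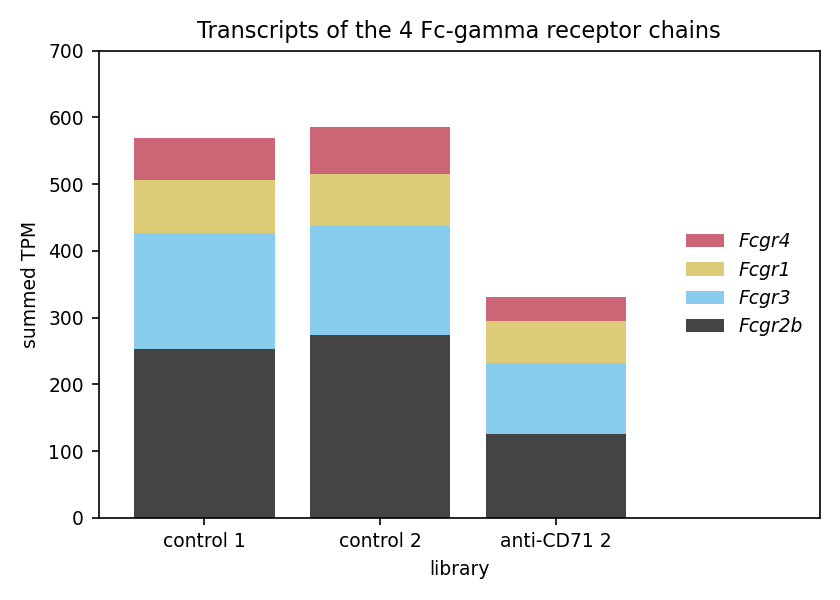
Summed TPM of Fcgr2b, Fcgr3, Fcgr1 and Fcgr4 (stacked from the bottom) in each complete library. The stack is 569.35 and 585.37 TPM high in the controls and 331.60 TPM high in anti-CD71 replicate 2, and the Fcgr2b part shrinks most, from 253.40 and 274.62 to 125.89 TPM.

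Anti-CD71 replicate 1 lists a minor transcript of Fcgr2b, NM_001077189. It differs from the main transcript NM_010187 by a coding exon of 141 bases, or 47 codons, at chr1:170963325-170963465 on the minus strand of GRCm38. This insert in the cytoplasmic tail marks the form known as b1, which is typical of B cells, while the main transcript encodes the b2 form of myeloid cells. The exon is shown because it separates the only form of Fcgr2b that all 4 libraries list.
Fcgr2b b1 exon: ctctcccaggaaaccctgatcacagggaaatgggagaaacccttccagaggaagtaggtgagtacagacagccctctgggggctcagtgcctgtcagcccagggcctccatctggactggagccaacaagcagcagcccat
The transcript with this exon had 8.24 and 10.53 TPM in the controls against 4.79 TPM in the first and 4.01 TPM in the second anti-CD71 library. Both anti-CD71 libraries were lower than both controls, as in 29.3% of the 5894 transcripts tested in 4 libraries. Over these transcripts the difference did not pass (log2 change -0.94, SE 0.18, unadjusted p = 0.00397, adjusted p = 0.162 by limma), and limma called 0.0339% of them lower. It held 3.25% and 3.83% of the TPM of Fcgr2b in the controls and 3.19% in the treated library. B cell genes were near 0: the summed TPM of 8 B and plasma cell markers was 1.95 and 2.91 in the controls and 1.60 in the treated library. The transcripts with and without the exon also differ in total length, 3544 and 1462 bases, so their TPM are not estimated from the exon alone.

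Syk has 2 transcripts above 1 TPM that all 4 libraries list. NM_011518 had 4.76 and 7.20 TPM in the controls against 3.28 TPM in the first and 1.69 TPM in the second anti-CD71 library. Its groups did not overlap either, and the difference did not pass (log2 change -1.02, SE 0.32, adjusted p = 0.249 by limma). XM_006516897 had 3.76 and 2.01 TPM in the controls against 2.27 and 2.89 TPM under anti-CD71, so its groups overlapped. The main transcript, NM_001198977, had 14.92 and 13.88 TPM in the controls and 14.43 TPM in anti-CD71 replicate 2, inside the range of the controls. By these estimates, the lower total of Syk in anti-CD71 replicate 2 lay in transcripts other than its main one. That reading rests on 1 treated library and on how reads were divided between transcripts of 1 gene, which is less certain than their sum. NM_011518 and NM_001198977 have coding sequences of the same length, 1887 bases. Summed over listed transcripts, Syk had 8.52 and 9.21 TPM in the controls against 5.55 TPM in the first and 4.58 TPM in the second anti-CD71 library, and missed the threshold (-0.71 on the log2 scale with SE 0.15, adjusted p = 0.144 in the limma fit of 4699 genes, of which 0.0426% were called lower and 30.8% lay below both controls in both anti-CD71 libraries).

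The 4 genes that fell all lie within 273.8 kb of chromosome 1, in the order Fcgr2b (170960558 to 170976071), Fcgr4 (171018926 to 171029761), Fcgr3 (171051169 to 171065915) and Fcer1g (171229572 to 171234349), and the 3 that did not pass lie on other chromosomes. The interval holds 2 other genes that were tested, which were picked out after their values were seen. Sdhc, a subunit of mitochondrial complex II, had 134.70 and 132.14 TPM in the controls and 143.41 TPM in anti-CD71 replicate 2 (log2 change 0.10, adjusted p = 0.426 by limma). Tomm40l, which encodes a mitochondrial import protein, had 17.46 and 18.20 TPM in the controls and 21.12 TPM in the treated library (log2 change 0.23, adjusted p = 0.223 by limma). Neither neighbour was lower in the treated library.

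The 120 bases before the start of 5 of the genes are shown because 4 of them fell in anti-CD71 replicate 2 and Fcgr1, the remaining receptor chain, did not pass. Sequences are from RefSeq on GRCm38.p6, and all 7 genes had an entry. Capitals mark GAGGAA or its reverse complement, a core bound by the myeloid factor PU.1. The motif was searched on both strands over the whole 300 bases (250 before the start and 50 after it).
Fcgr1, chr3:96293970-96294089, minus strand: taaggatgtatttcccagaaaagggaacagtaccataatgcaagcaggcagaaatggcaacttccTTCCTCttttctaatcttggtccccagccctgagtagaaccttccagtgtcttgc
Fcgr3, chr1:171059404-171059523, minus strand: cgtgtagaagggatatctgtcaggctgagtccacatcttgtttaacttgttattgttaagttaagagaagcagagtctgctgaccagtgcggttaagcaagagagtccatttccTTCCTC
Fcgr4, chr1:171018806-171018925, plus strand: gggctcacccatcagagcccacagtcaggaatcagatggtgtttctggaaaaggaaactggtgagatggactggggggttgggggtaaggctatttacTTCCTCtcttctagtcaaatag
Fcgr2b, chr1:170976072-170976191, minus strand: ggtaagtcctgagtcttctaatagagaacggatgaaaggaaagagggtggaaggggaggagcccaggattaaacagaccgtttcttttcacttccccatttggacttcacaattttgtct
Fcer1g, chr1:171234350-171234469, minus strand: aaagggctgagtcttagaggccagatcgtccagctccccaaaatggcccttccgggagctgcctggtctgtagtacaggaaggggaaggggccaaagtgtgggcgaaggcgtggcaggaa
GAGGAA was found as its reverse complement in the windows of the 3 activating chains, at bases -55 to -50 of Fcgr1, -6 to -1 of Fcgr3 and -22 to -17 of Fcgr4, counted from the start of the transcript. It occurs in 28.3% of the 32851 promoter windows. The motif is not in the windows of Fcgr2b, Fcer1g and Fcgrt, and a second start of Syk holds GAGGAA at bases -9 to -4. Counted from a second start of Fcgr3, the site of that gene lies at bases -15 to -10.

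Genes that act below the activating receptors were lower as well: 7 of 18 fell in anti-CD71 replicate 2, 0 rose and 17 lay below 0 (median log2 change -0.69). The counts of this list and of the lists below are read against the shares of all tested genes given above. Of all 11982 tested genes, 6160 lay below 0. The adaptor gene Lcp2 (SLP-76) fell by 0.95, from 22.92 and 25.76 TPM to 12.06 TPM. The GTPase gene Rac2 (-0.94) and the lipid kinase gene Pik3cg (-0.88) fell. Plcg2 (-0.83), whose product acts on membrane lipids to release calcium, the Src family kinase gene Fgr (-0.80), the exchange factor gene Vav1 (-0.73) and the kinase gene Btk (-0.72) fell too. The 7 adjusted p-values by limma ran from 0.0316 for Lcp2 and Fgr to 0.0496 for Plcg2. Other members did not pass, such as the Src family kinase gene Lyn (log2 change -0.42, adjusted p = 0.132 by limma) and Cbl, a ubiquitin ligase (-0.24). With a filter of 1 TPM in 1 library 0 of the 18 were called by limma, as with no trend, and with median scaling 2 were.

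Of the inhibitory receptors and phosphatases, 7 of 15 tested genes fell and 0 rose (median log2 change -0.68). Cd72, an inhibitory C-type lectin, fell (-1.07), as did Ptpn6 (-0.87), the phosphatase SHP-1. Clec12a (-0.76), the CD47 receptor gene Sirpa (-0.74), Pirb (-0.68), Cd300lf (-0.66) and the adaptor gene Dok2 (-0.53) fell too. Inpp5d, whose product SHIP-1 binds the ITIM of Fcgr2b, had 29.80 and 33.92 TPM in the controls and 19.00 TPM in anti-CD71 replicate 2 and missed the threshold (log2 change -0.71, adjusted p = 0.0503 by limma). Siglece had the largest difference without passing (-1.21, adjusted p = 0.125 by limma). Ptpn11, the phosphatase SHP-2, which most cell types express, had 56.72 and 53.87 TPM in the controls and 54.54 TPM in the treated library. With a filter of 1 TPM in 1 library 0 of the 15 were called by limma, as with no trend, and with median scaling 3 were.

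**Figure D4:**
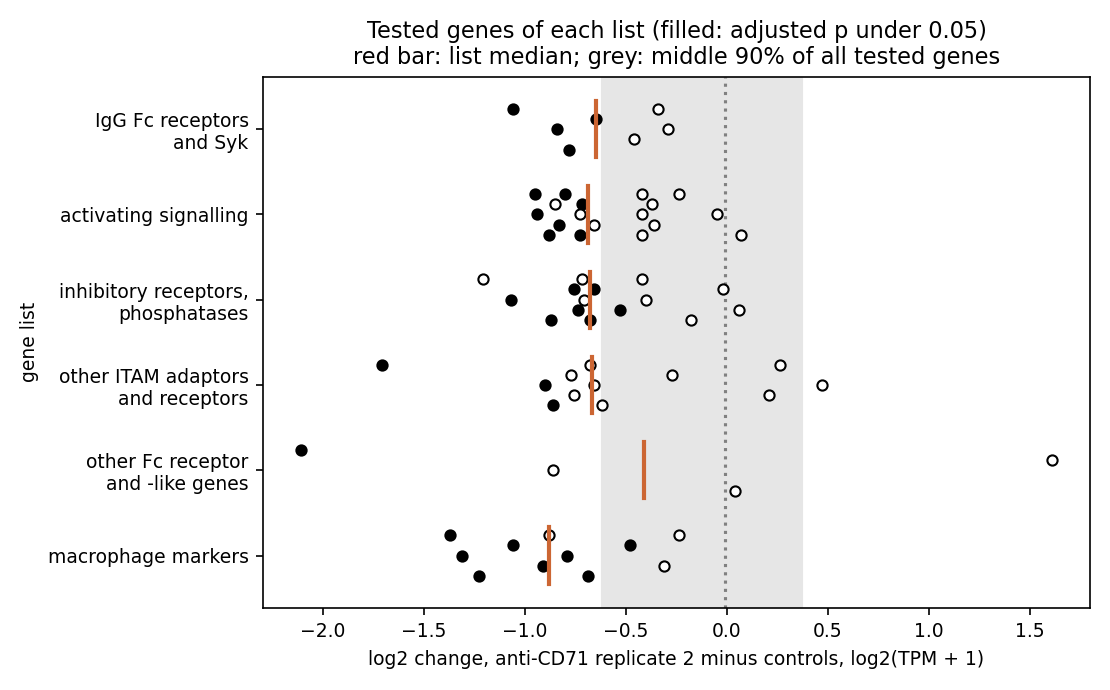
Log2 change of each tested gene in anti-CD71 replicate 2 against the controls, by gene list, filled where the adjusted p is under 0.05, with the list median as a bar and the middle 90% of all tested genes (-0.62 to 0.37) in grey. The medians of the IgG Fc receptor genes (-0.65), activating signalling (-0.69), inhibitory (-0.68) and other ITAM (-0.67) lists lie close together, and that of the macrophage markers is -0.88.

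Among other ITAM adaptors and the receptors that use them, 3 of 12 tested genes fell and 0 rose. Tyrobp, the adaptor DAP12, had 513.78 and 584.43 TPM in the controls and fell to 292.77 TPM (-0.90 on the log2 scale, adjusted p = 0.0285 by limma), as did its partner Trem2 (-0.86), a lipid receptor of macrophages, and Ncr1 (-1.71), the natural killer cell receptor NKp46. The C-type lectin receptors that pair with FcR gamma did not move together: Clec4n, which encodes dectin-2, had a log2 change of -0.77 (adjusted p = 0.0677 by limma), while Clec4d (0.47, adjusted p = 0.067) and Clec4e (0.26, adjusted p = 0.381), which encodes Mincle, lay above 0 by limma. Clec4d had 22.93 and 23.28 TPM in the controls and 32.47 TPM in anti-CD71 replicate 2. With no trend, or a filter of 1 TPM in 1 library, 0 of the 12 were called by limma.

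Of 12 Fc receptor genes for other antibody classes and Fc receptor-like genes, 4 could be tested and 1 fell. Fcrl6, a receptor-like gene of cytotoxic lymphocytes, had 10.66 and 10.94 TPM in the controls and fell to 1.73 TPM (-2.11 on the log2 scale, SE 0.13, adjusted p = 0.00798 by limma). Fcer1a, the IgE-binding chain of the receptor that mast cells build with the Fcer1g product, had 1.87 and 0.50 TPM in the controls and 5.35 TPM in anti-CD71 replicate 2, and missed the threshold (log2 change 1.61, adjusted p = 0.103 by limma). It thus differed in the direction opposite to its subunit. Trim21, a cytosolic receptor for IgG, had 17.52 and 15.76 TPM in the controls and 17.10 TPM in the treated library, inside their range. Fcrlb did not pass (-0.86, adjusted p = 0.0621 by limma). The other 8, among them Pigr, Fcmr and Fcamr, did not reach 1 TPM in any complete library.

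Beside the transcripts of Fcgr2b and Syk, some signalling genes are listed for all 4 libraries. Vav1 had 20.82 and 22.81 TPM over its listed transcripts in the controls, 14.90 TPM in the first and 12.72 TPM in the second anti-CD71 library. Both anti-CD71 libraries were below both controls, as in 31.1% of the 1563 genes tested in 4 libraries, and Vav1 fell (-0.63 on the log2 scale with SE 0.11, adjusted p = 0.0442 in the limma fit of these genes, of which 3.45% were called lower). Without control replicate 1 its adjusted p was 0.207, without control replicate 2 it was 0.348 and without anti-CD71 replicate 2 it was 0.0672. The call was also lost by limma with a filter of 1 TPM in 1 library (adjusted p = 0.0548), median scaling (0.0614), no trend (0.066), the replicate number as a block (0.104), any listed transcript counted (0.129) and no filter (0.171). The inhibitory receptor gene Pirb had 53.63 and 62.22 TPM in the controls against 41.87 and 33.52 TPM under anti-CD71 and missed the threshold (-0.61, adjusted p = 0.0607 by limma). Listed transcripts of Sirpa, with 68.9% of its TPM, stood at 91.24 and 96.47 TPM in the controls against 61.19 and 62.21 TPM under anti-CD71. In Vav1 and Pirb, replicate 1 lay between the controls and replicate 2.

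**Figure D5:**
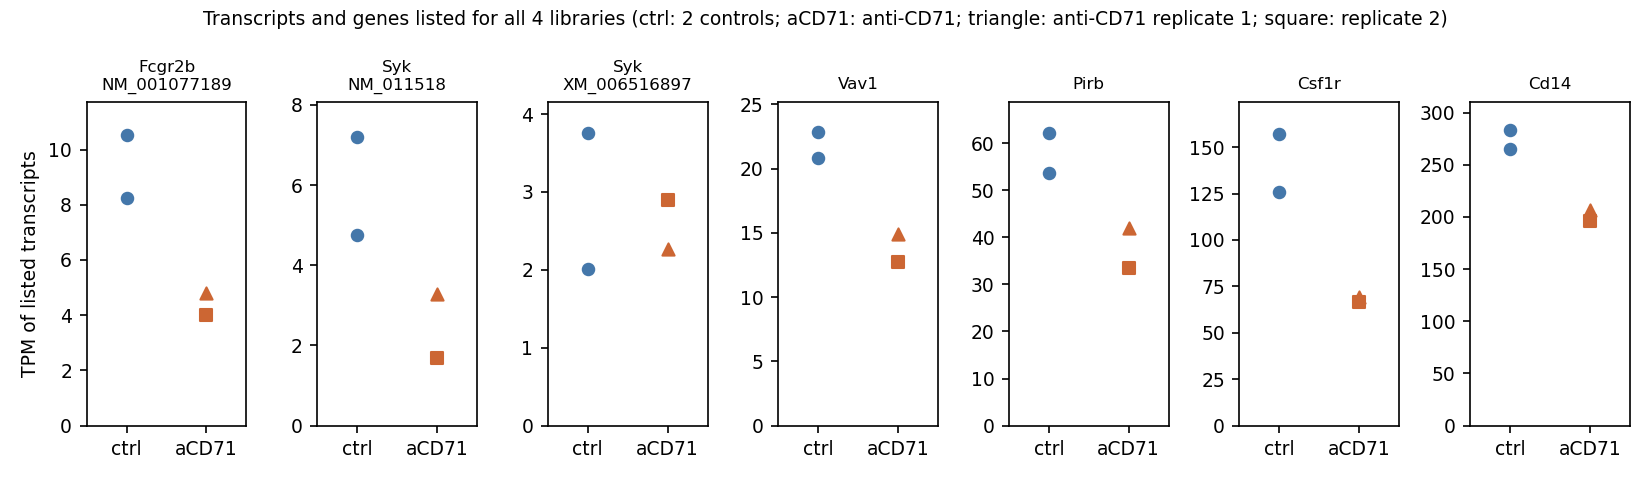
TPM of transcripts listed for all 4 libraries (linear axes from 0), in 2 controls (circles), anti-CD71 replicate 1 (triangle) and replicate 2 (square): single transcripts of Fcgr2b and Syk, then the listed transcripts of Vav1, Pirb, Csf1r and Cd14. Both anti-CD71 values lie below both controls in each panel except Syk XM_006516897 (3.76 and 2.01 against 2.27 and 2.89 TPM).

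In the treated library the summed markers of macrophages, natural killer cells, T cells and dendritic cells were lower with the receptor genes. The summed markers of neutrophils and of mast cells and basophils were higher, though not each gene of these lists. Of 11 macrophage markers, 8 fell, 0 rose and all lay below both controls, and their summed TPM was 3737.79 and 4535.69 in the controls and 1943.02 in the treated library, or 47% of the control mean. Limma called 0 of the 11 with a filter of 1 TPM in 1 library and with no trend. Csf1r, the receptor that macrophages depend on, had 125.77 and 156.93 TPM in the controls against 69.38 TPM in the first and 66.83 TPM in the second anti-CD71 library. Cd14 had 265.21 and 282.87 TPM in the controls against 206.70 and 195.73 TPM under anti-CD71. Both anti-CD71 libraries were thus below both controls in these macrophage genes, as in 31.1% of the 1563 genes tested in 4 libraries. In that fit Csf1r (log2 change -1.03, adjusted p = 0.032 by limma) and Cd14 (-0.44, adjusted p = 0.0388 by limma) fell. Of the 3 macrophage markers tested in it, Mertk did not pass (-0.36, adjusted p = 0.114 by limma). The calls of Csf1r and Cd14 were both lost with no trend (adjusted p = 0.0577 and 0.0722 by limma) or with the replicate number as a block (0.0743 and 0.104). Both were also lost by limma with no filter (adjusted p = 0.144 each), with any listed transcript counted (0.0949 and 0.116) and without either control. The call of Cd14 was further lost by limma with a filter of 1 TPM in 1 library (adjusted p = 0.0518) and with median scaling (0.0614). It was lost without anti-CD71 replicate 2 as well. The summed TPM of 9 natural killer cell markers was 264.08 and 255.75 in the controls and 67.44 in the treated library, with all 9 below both controls. Over all tested genes, 42.5% lay below both controls in the treated library. Listed in all 4 libraries, Gzmb, a granzyme of these cells, had 100.74 and 84.83 TPM in the controls against 79.54 TPM in the first and 27.62 TPM in the second anti-CD71 library and missed the threshold (-0.96, adjusted p = 0.241 by limma). Ncr1 had 9.53 and 11.54 TPM against 5.10 and 2.52 TPM (-1.31, adjusted p = 0.0554 by limma). The first anti-CD71 library was thus nearer to the controls than the second in both genes. The sum of 11 neutrophil markers was 68.99, 88.07 and 579.32 with 9 above both controls, and S100a8 and S100a9 made up most of the last value (265.49 and 212.99 TPM). Listed transcripts of S100a9, with 85.7% of its TPM, had 3.67 and 0.00 TPM in the controls. They had 142.39 TPM in the first and 183.50 TPM in the second anti-CD71 library. The 6 T cell markers summed to 11.71 and 12.53 TPM in the controls and 5.22 TPM in the treated library, with all 6 below both controls. Dendritic cell markers summed to 71.43, 83.22 and 47.21 TPM and mast cell and basophil markers to 116.96, 64.80 and 180.91 TPM. Of the 9 mast cell and basophil markers found, 7 lay above both controls. Kit (3.67, 4.10 and 2.70 TPM) and Mcpt8 (2.28, 2.03 and 0.32 TPM) lay below both. Cma1, a mast cell chymase, had 17.35 and 9.96 TPM in the controls, 16.64 TPM in the first anti-CD71 library, inside their range, and 38.38 TPM in the second. No marker in these lists was at 0 in all 3 complete libraries, and the neutrophil genes Retnlg, Camp and Ngp were at 0 in both controls. The part of these cell types in the result was not tested.

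Set against the summed macrophage markers, the receptor genes did not share a single proportion. Fcgr2b TPM was 6.78% and 6.05% of the marker sum in the controls and 6.48% in the treated library, inside the control range. The other 6 genes lay above both controls on this scale, such as Fcgr1 (2.15%, 1.73% and 3.21%), Fcgr3 (4.62%, 3.58% and 5.49%) and Fcer1g (7.41%, 7.06% and 8.91%). The complement genes C1qa, C1qb and C1qc dominate that sum and had large differences. Without them Fcgr2b was 21.1% and 21.3% of the remaining 8 markers in the controls and 16.2% in the treated library, Fcgr4 (5.24%, 5.39% and 4.71%) and Fcer1g (23.1%, 24.8% and 22.2%) lay below both controls, Fcgr3 (14.4%, 12.6% and 13.7%) inside them, and Fcgr1 (6.67%, 6.1% and 8.02%), Fcgrt (7.93%, 8.45% and 9.49%) and Syk (2.19%, 1.97% and 2.7%) above them. Fcgr1, Fcgrt and Syk thus lay above both controls with either sum, while the place of the other 4 genes against the controls depended on the markers used. Since each library has a single marker sum, the order of the genes among themselves follows from their own changes.

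The genes closest in pattern to Fcer1g and Fcgr2b were sought over the 3 complete libraries, by Euclidean distance of log2(TPM + 1) after subtraction of the control mean, among 8579 other genes whose mean was 10 TPM or more. For Fcer1g they were Themis2 (distance 0.00703), Snx20, Ddit3, Rasgef1b and Sqor (0.0178). Themis2, a signalling adaptor of B cells and macrophages, had 25.48, 29.40 and 15.59 TPM. For Fcgr2b they were Ctsc (0.0544), Neurl3, Cxcl16, Pltp and Cybb (0.0644). Ctsc, the protease cathepsin C, had 175.97, 188.96 and 83.66 TPM, and Cybb, the catalytic subunit of the phagocyte oxidase, had 58.75, 65.82 and 30.47 TPM. With 3 libraries, such a distance describes a single fold change and the gap between the controls.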

How the data were processed

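The authors deposited TPM values per RefSeq transcript. Per the submitters' processing notes the reference was GRCm38.p6; the sources used here name no aligner or quantifier. A RefSeq gene table of that build matched 58425 of 59881 transcripts, and TPM were summed by gene, with 1744 copies at a second locus included. The broken last line of the partial file was not used. Limma 3.58.1 in R 4.3.3 was run on log2(TPM + 1) with an intensity trend, on genes with at least 1 TPM in 2 libraries. Fold changes are on that scale and understate changes of low genes. For 4 libraries, a gene needed listed transcripts with at least 90% of its TPM, which no member had. Named genes are the 7 members, the called genes and the 3 largest differences of each pathway list, and the 5 nearest in pattern. Other list genes (Lyn, Cbl, Inpp5d, Ptpn11, Clec4d, Clec4e, Clec4n) and single marker genes were picked after their values were seen. The members and lists were chosen with earlier results of these data known. The alternatives changed pseudocount, filter, scaling, trend, second-locus copies, libraries and the replicate block. Transcript-level tests, Fcgr3 alone over Fcgr2b, and markers without C1q were added after seeing the data. A second promoter motif and a gene of the signalling list are not reported here.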

Additional observations from a re-analysis of the deposited data

How the results depend on the processing

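For anti-CD71 replicate 2 against the controls, limma called 286 genes lower and 57 higher. With no filter it called 6 lower and 256 higher, with 1 TPM in 1 library 12 lower, with no trend 22 lower and 13 higher, and with median scaling 187 lower. Members called lower numbered 4, and 0 with no filter, with 1 TPM in 1 library or with no trend. With pseudocounts of 0.5 and 0.1 and without second-locus copies, 4 members were called. Median degrees of freedom were 5.03, and 1.77 with no filter, 2.88 with 1 TPM in 1 library and 3.8 with no trend. Whether these differences made the change in calls was not tested. Without either control, no residual degree of freedom was left and only log2 changes were computed.

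The ratio of activating chains to Fcgr2b, 1.37 times the control mean, was 1.28 times with Fcgr3 and Fcgr4 only. The summed members over macrophage markers, 1.26 times the control mean, were 0.96 times without C1qa, C1qb and C1qc.

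Over genes listed for 4 libraries, limma called 54 lower and 13 higher. It called 0 lower and 1 higher with no filter (435 at an unadjusted p under 0.05), 7 lower and 1 higher with 1 TPM in 1 library, 3 lower and 1 higher with no trend, 21 higher with median scaling, 2 lower and 2 higher counting any listed transcript, and 2 lower and 2 higher for single transcripts. Leaving out each library in turn gave 0 to 61 lower and 1 to 35 higher, and without control replicate 1 or 2 there were 0 lower (270 and 171 at an unadjusted p under 0.05). With the replicate number as a block, 1 was lower and 2 higher. Differences between replicates 1 and 2 had a correlation of -0.006 between the groups over 1563 genes. That value shows no pairing by replicate number in these genes, but it cannot show that the numbers are only names. The 2 anti-CD71 libraries differed from each other with an SD of 0.294 (log2), and the controls with an SD of 0.222, so the spread of the treated group may exceed what the comparison over 3 libraries assumes.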
